A study of Rattus norvegicus with 14 samples.

Results

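Oligodendrocytes are the glial cells that wrap the axons of the brain in myelin, and 7 genes for proteins of that sheath, of 10412 genes with a probe set of their own, were followed here in the hippocampal subfield CA3 of the rat: Mbp, Mobp, Cnp, Mal, Cldn11, Mag and Mog. All probe sets that the platform annotation assigned to 1 of these genes alone were taken, which gave 12 of the 15923 probe sets on the array. Mobp had 3 of them, called brightest, middle and dimmest by their mean level, Mbp, Cnp and Cldn11 had a brighter and a dimmer one, and Mal, Mag and Mog had 1 each. None was dim, that is, all 12 had a mean above the 40th percentile of the array, a log2 level of 3.88.

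CA3 was dissected from 14 male Long-Evans rats of 3 to 4 months, with 1 Affymetrix RAE230A array per animal and 7 animals in each group. Every rat, controls included, had learned a standard water maze 2 to 3 weeks earlier and then had 8 swims at intervals of 8 min in a maze they did not know. For the learning group this maze had orienting cues and a visible platform that kept its place. For the control group it lacked informative cues, and the visible platform was moved from trial to trial. All animals had a 90 s probe trial without platform 1 h after the last trial and were killed directly afterwards. The comparison therefore asks how CA3 transcripts differ after a single session in which a new place could be learned, with cues and platform movement differing along with it. The tissue is a dissected subfield, so it holds glia, vessels and fibres beside pyramidal neurons, and in such bulk RNA fewer cells of a type and less RNA per cell cannot be told apart.

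Myelin is a stack of membrane layers that is compacted on its cytoplasmic side by Mbp, the myelin basic protein, while Mobp is a second small basic protein of the same compartment. Cnp, an enzyme that hydrolyses cyclic nucleotides in vitro, keeps cytoplasmic channels open in the sheath, Mal is a proteolipid of its lipid-rich domains, and Cldn11 forms the tight junctions between its turns. Mag, an adhesion receptor of the immunoglobulin family, sits on the innermost layer facing the axon, and Mog, of the same superfamily, is on the outermost surface. In oligodendrocytes this gene programme is driven by the transcription factors Olig2, Sox10 and Myrf, and new myelination has been linked to learning in the adult rodent brain.

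Of the 12 probe sets, 0 passed an adjusted p of 0.05 in the limma test, against 3.35% of all 9520 probe sets tested (2.55% higher and 0.798% lower in the learning group). At an unadjusted p under 0.05 there was 1, against 19.9% of all tested. Of the 12, 8 had a log2 fold change (learning minus control) below 0, and the median was -0.08, while 58.0% of all tested probe sets lay below 0 with a median of -0.02. At none of the 12 were the groups fully separate, against 2.10% of all tested. Changes ran from -0.24 to 0.20 on the log2 scale. The widest 95% interval, that of the middle Mobp probe set, ran from -0.14 to 0.54, and the narrowest, of the brighter Mbp one, from -0.06 to 0.09.

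**Figure D1:**
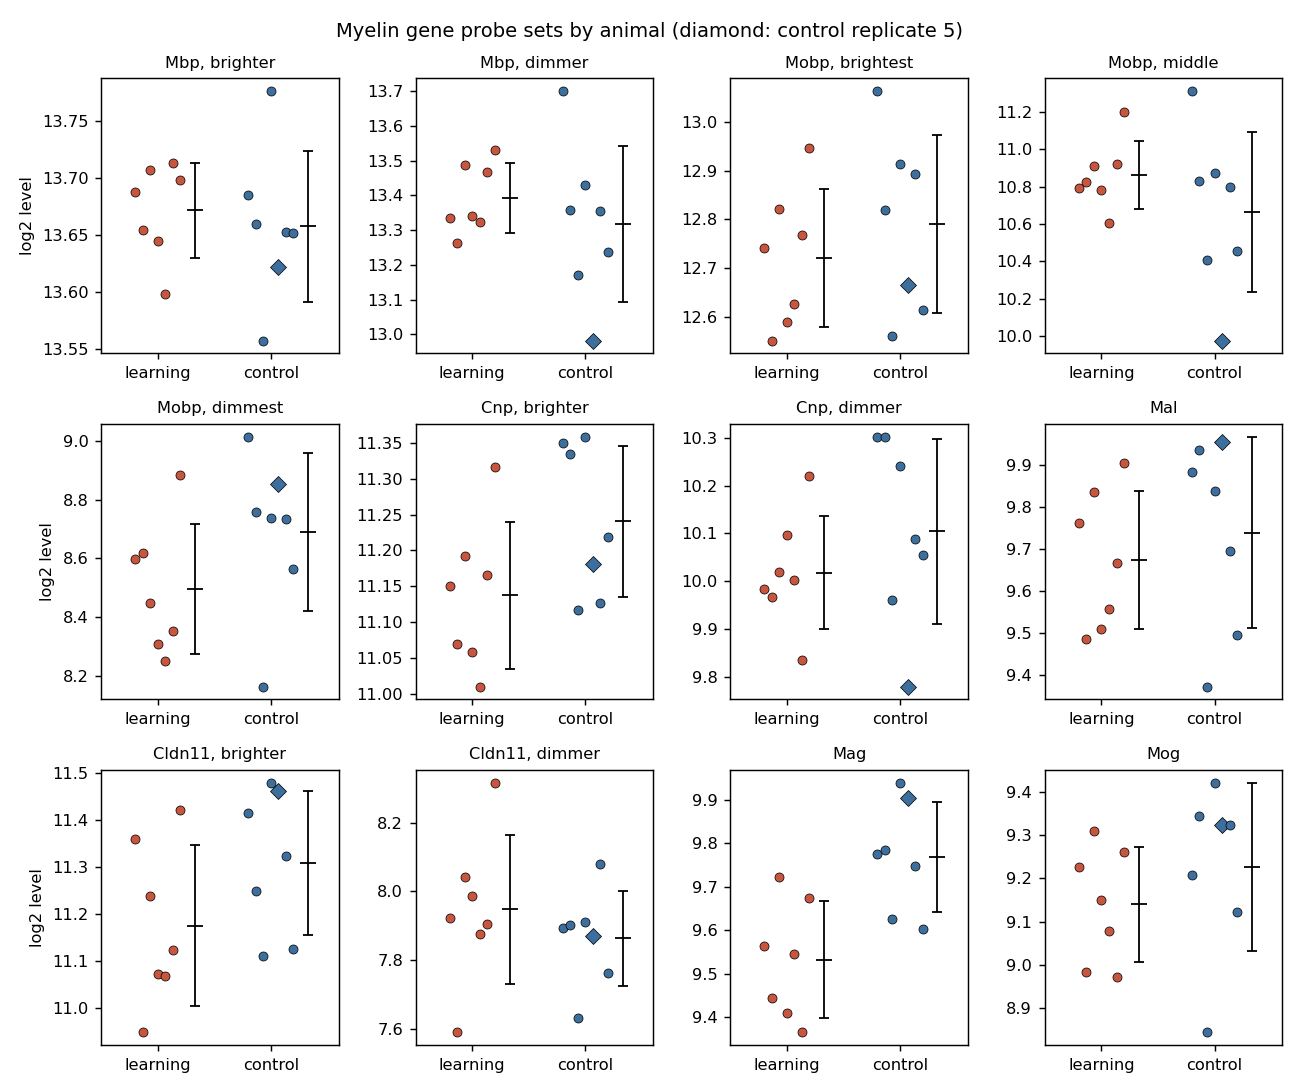
Log2 level of each of the 12 probe sets (vertical axis) in every animal, learning at the left and control at the right of each panel. The black marks are the mean and SD of 7 animals. The groups overlap in all panels, least at Mag, where all 7 learning animals lie below the control median of 9.77.

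The adhesion receptor of the inner sheath, Mag, differed most. Its probe set, 1368861_a_at, had log2 levels of 9.37, 9.55 and 9.72 (lowest, median and highest) in the learning group, against 9.60, 9.77 and 9.94 in the control group. All 7 learning animals lay below the control median, and 5 of them below the lowest control animal. The mean was 9.53 ± 0.13 in learning and 9.77 ± 0.13 in control animals (SD, n = 7 each), a log2 fold change of -0.24 (SE 0.0667, 95% interval -0.38 to -0.09). That is a level 0.849 times that of control, with an interval of 0.769 to 0.937. The unadjusted p was 0.00298 and the adjusted p in limma 0.0666, so Mag did not pass over all probe sets tested. It was the only one of the 12 whose interval excluded 0. In 2 of 26 alternatives it passed in limma, with the cutoff for dim probe sets at the 60th percentile (adjusted p = 0.0488) and without control replicate 7 (0.0448). In the other 24 it did not, among them the fit with no such cutoff (0.120) and that without control replicates 1 and 5 (0.198), and the highest adjusted p was 0.321.

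The surface protein Mog, of the same superfamily (1398257_at), had 8.97, 9.15 and 9.31 in the learning group, against 8.84, 9.32 and 9.42 in the control group. Here too all 7 learning animals lay below the control median, but the lowest value of all 14 belonged to a control animal, replicate 3. Its log2 fold change was -0.09 (95% interval -0.26 to 0.09, limma adjusted p = 0.611).

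For the major basic protein Mbp the brighter probe set was nearly level between the groups, and the dimmer one had a wider interval. At the brighter one, 1368810_a_at, the learning animals had 13.60, 13.69 and 13.71, against 13.56, 13.65 and 13.78 in control animals. The log2 fold change of 0.01 had a 95% interval of -0.06 to 0.09, which limits a change to between 0.958 and 1.06 times the control level. These values lie close to the top of the array's range, where the brightest probe set reached 14.08 to 14.24 on an array, and differences there may be compressed. At the dimmer one, 1387341_a_at, the learning animals had 13.26, 13.34 and 13.53, against 12.98, 13.36 and 13.70 in control animals. The control group held both extremes, and the log2 fold change was 0.07 (95% interval -0.11 to 0.26, limma adjusted p = 0.688).

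The 3 probe sets of Mobp pointed in different directions. At the brightest, 1370434_a_at, the learning animals had 12.55, 12.74 and 12.95, against 12.56, 12.82 and 13.06 in control animals, a log2 fold change of -0.07. At the middle one, 1370500_a_at, they had 10.60, 10.82 and 11.20, against 9.97, 10.80 and 11.31, a change of 0.20 with a learning SD of 0.18 and a control SD of 0.43. That change was 0.08 without control replicate 5, 0.31 without control replicate 1 and 0.03 with the hexokinase 3'/5' ratio, a measure of RNA integrity, as covariate. At the dimmest, 1368263_a_at, the values were 8.25, 8.45 and 8.88 in learning animals, against 8.16, 8.74 and 9.01 in control animals, a change of -0.19. Limma adjusted p-values were 0.689, 0.528 and 0.390 in this order, and each 95% interval included 0.

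Cnp, the enzyme of the cytoplasmic channels, had log2 levels of 11.01, 11.15 and 11.32 at the brighter probe set, 1387897_at, in the learning group, against 11.12, 11.22 and 11.36 in the control group. In 3 learning animals the level was below that of every control animal, and the change was -0.10 (95% interval -0.22 to 0.01, limma adjusted p = 0.317). Its dimmer probe set, 1370693_a_at, had 9.84, 10.003 and 10.22 in the learning group, against 9.78, 10.09 and 10.30 in the control group. The change there was -0.09 (limma adjusted p = 0.597).

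Mal, the proteolipid (1387040_at), had 9.49, 9.67 and 9.90 in learning animals, against 9.37, 9.84 and 9.95 in control animals. The ranges covered each other almost fully, and the change of -0.06 had a 95% interval of -0.27 to 0.14 (limma adjusted p = 0.761). Cldn11, the tight junction protein, had 10.95, 11.12 and 11.42 at the brighter probe set, 1376711_at, in learning animals, against 11.11, 11.32 and 11.48 in control animals, with a change of -0.13 (95% interval -0.31 to 0.04). At the dimmer one, 1369609_at, it had 7.59, 7.92 and 8.32, against 7.63, 7.89 and 8.08, with a change of 0.08 (95% interval -0.11 to 0.28). Neither passed in limma (adjusted p = 0.382 and 0.654).

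**Figure D2:**
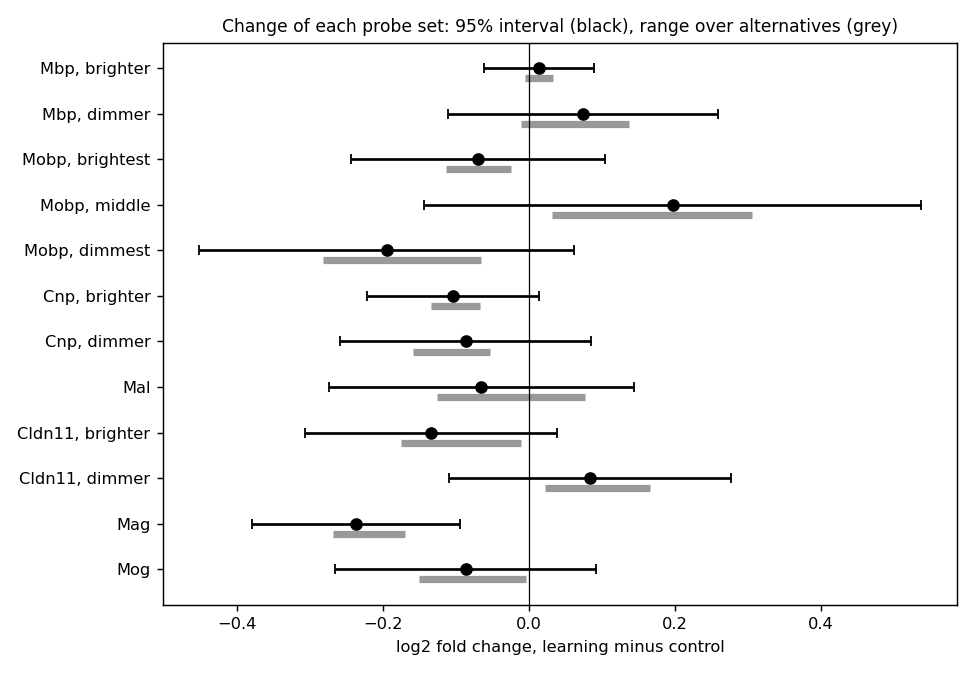
Log2 fold change (learning minus control, horizontal axis) of each probe set, as a point with its 95% interval in black. The grey bar is the range over the alternatives run, and Mag, at -0.24, is the only one whose interval excludes 0.

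Probe sets of the same gene differed in direction for Mobp and Cldn11, and this was tested as the difference between them on each array, by two-sided exact permutation over the 3432 assignments of the 14 arrays. The 6 pairs within the 4 genes with more than 1 probe set were compared, a test added after the values were seen and with differences between dimmer and brighter probe sets of these arrays already known. For Cldn11, the dimmer minus the brighter averaged -3.23 ± 0.13 in learning and -3.44 ± 0.13 in control animals (SD, n = 7 each), and 5 learning animals lay above every control animal (difference 0.22, exact p = 0.0117, adjusted p = 0.0350). For Mobp, the middle minus the brightest averaged -1.86 ± 0.11 in learning and -2.13 ± 0.29 in control animals (SD, n = 7 each, difference 0.27, exact p = 0.0210, adjusted p = 0.0420). The dimmest minus the middle Mobp probe set averaged -2.37 ± 0.14 in learning and -1.98 ± 0.40 in control animals (SD, n = 7 each, difference -0.39, exact p = 0.00524, adjusted p = 0.0315).

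The remaining pairs, of Mbp, of Cnp and the last of Mobp, did not pass (exact p = 0.481, 0.788 and 0.224, adjusted p = 0.578, 0.788 and 0.337). None of the 3 that passed is secure against the loss of 1 array. Without control replicate 5 the differences of Mobp were 0.17 and -0.25, smaller by more than 1.5 times, and none of the 3 passed after adjustment over the 6 pairs (exact test, adjusted p = 0.0839 and 0.0629 for Mobp and 0.0629 for Cldn11). Over the 14 ways to leave out 1 array, Cldn11 passed in 7, the middle minus the brightest Mobp probe set in 3 and the dimmest minus the middle in 9, with unadjusted exact p-values under 0.05 and the same direction in all 14. Without control replicates 1 and 5 together both Mobp differences passed (exact test, adjusted p = 0.0189 each) and that of Cldn11 did not (0.17, adjusted p = 0.0985). Both Mobp differences that passed contain the middle probe set, so they are not separate results. The differences were not tested with a 3'/5' ratio as covariate. These values are log ratios of probe signals, which differ in affinity. Any unequal change in them is between probe sets and does not give the amounts of transcript variants.

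The animals differed among themselves in the myelin genes together. Taking deviations from the group mean over the 14 arrays, all 66 pairs of the 12 probe sets were positively correlated, with a median Pearson r of 0.60 and a range of 0.14 to 0.96. The highest r was between the dimmer Mbp and the middle Mobp probe set (Spearman rho 0.89). The mean log2 level of the 7 genes, each by its brightest probe set, was 10.88, 10.97 and 11.17 (lowest, median and highest) in learning animals, against 10.88, 11.16 and 11.25 in controls. Learning replicate 7 and control replicate 4 were the highest animals of their groups, and learning replicate 2 and control replicate 3 the lowest. The points share an array each, so the normalization of an array enters all 12 values at once.

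**Figure D3:**
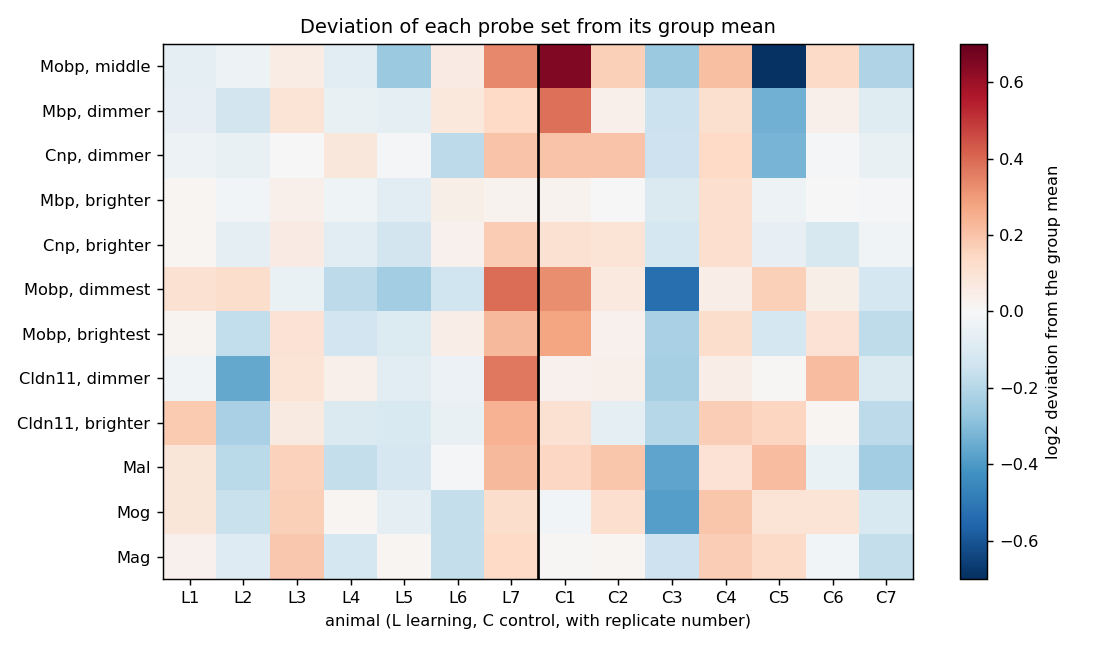
Deviation of each of the 12 probe sets (rows, sorted by correlation with Mag) from its group mean in each animal (columns), in log2 units by colour. Learning 7 is high and control 3 low at nearly all probe sets, while control 5 is low at the middle Mobp, dimmer Mbp and dimmer Cnp probe sets and high at Mal, Mag and the brighter Cldn11 one.

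The array of control replicate 5 split the probe sets. It was the lowest of all 14 at the dimmer Mbp (12.98), the middle Mobp (9.97) and the dimmer Cnp probe set (9.78), and the highest at Mal (9.95). At Mag and at the brighter Cldn11 probe set it was the second highest. Without control replicates 1 and 5 the median r among the 66 pairs was 0.71 and the lowest 0.38. Control replicate 5 also had the highest 3'/5' ratio of the hexokinase control probe sets at 2.57 (log2). The other control arrays had 1.03 to 1.61 and the learning arrays 1.25 to 1.41.

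Within groups, the level of the middle Mobp probe set had a Pearson r of -0.80 with this ratio over the 14 arrays (permutation p = 0.0064, adjusted p = 0.118), with a Spearman rho of -0.54 (permutation p = 0.0662, adjusted p = 0.482). The r of the dimmer Mbp probe set was -0.77 (permutation p = 0.0186, adjusted p = 0.134) and its rho -0.43 (permutation p = 0.153, adjusted p = 0.504). That of the dimmer Cnp probe set was -0.71 (permutation p = 0.0149, adjusted p = 0.134) and its rho -0.47 (permutation p = 0.0958, adjusted p = 0.482). For Mag r was 0.24 (permutation p = 0.473, adjusted p = 0.682) and rho 0.06 (permutation p = 0.832, adjusted p = 0.936). Over all 36 correlations computed, of 12 probe sets with the ratios of hexokinase, actin and Gapdh, 0 passed after adjustment. For each ratio, the 2 arrays farthest from the median were also left out, taking the ratio's deviations from its group mean. For hexokinase these were control replicates 1 and 5. Without them r was -0.27 for the middle Mobp and -0.25 for the dimmer Mbp probe set. It was -0.27 for the dimmer Cnp probe set and -0.08 for Mag. The relations of Mobp, Mbp and Cnp with hexokinase thus rest largely on those arrays. With the actin ratio the dimmer Cnp probe set had an r of -0.75 (permutation p = 0.0066, adjusted p = 0.118), and -0.44 without control replicates 3 and 5. The middle Mobp one had -0.69 with actin (permutation p = 0.0482, adjusted p = 0.248), and -0.23 without them. With the Gapdh ratio the brighter Cldn11 probe set had an r of 0.66 (permutation p = 0.0103, adjusted p = 0.124) and a rho of 0.71 (permutation p = 0.0083, adjusted p = 0.299). For Mal r was 0.62 (permutation p = 0.0229, adjusted p = 0.137) and for Mag 0.45 (permutation p = 0.124, adjusted p = 0.445). Without control replicate 5 and learning replicate 7, farthest by the deviations of the Gapdh ratio from its group mean, r was 0.55, 0.47 and 0.17 in this order.

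**Figure D4:**
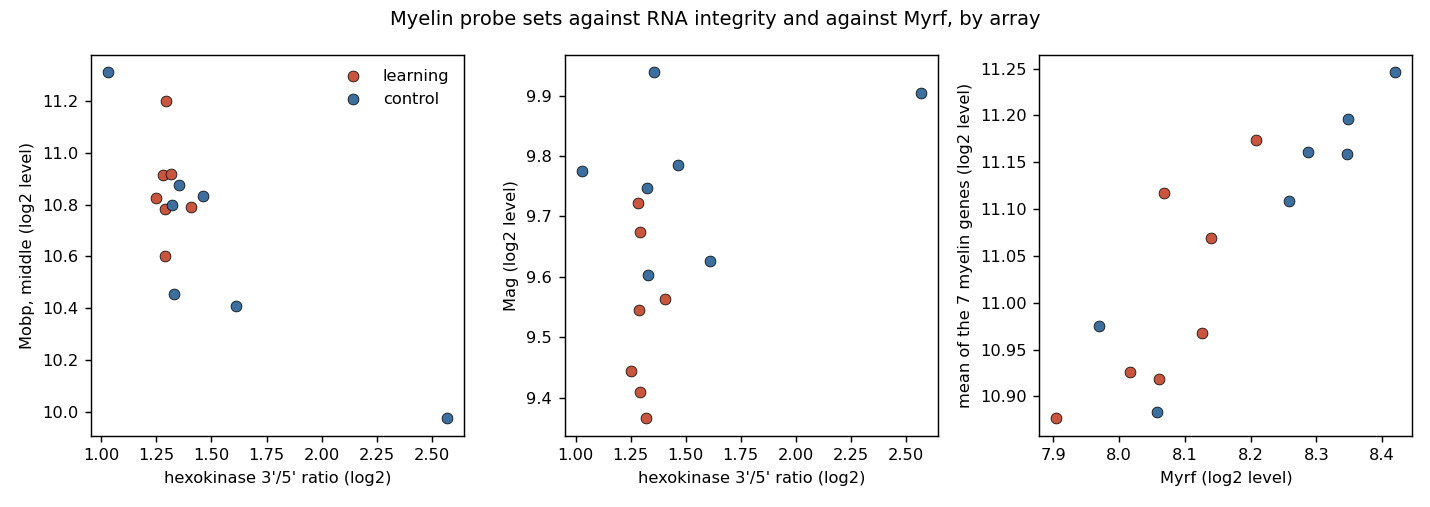
Left and middle, log2 level of the middle Mobp probe set and of Mag against the hexokinase 3'/5' ratio (log2), 1 point per array. Right, mean log2 level of the 7 myelin genes against that of Myrf; control replicate 5 stands alone at a ratio of 2.57, and Myrf rises and falls with the myelin mean over animals (r = 0.86 for deviations from the group means).

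None of the other oligodendrocyte genes tested passed in limma either. From 5 lists of 106 symbols, some of them alternative names of 1 gene, 71 had a probe set of their own and 61 were bright enough to be tested at their brightest one. Of the 61, 0 rose and 0 fell, against 109 higher and 67 lower of all 6836 genes taken by their brightest probe set, or 2.57%. At an unadjusted p under 0.05 there were 18, or 29.5%, against 18.6% of the 6836. Their median log2 fold change was -0.08, with 68.9% below 0, while over those 6836 genes the median was -0.03 and 63.9% lay below 0. Marker lists of other cells had medians of -0.06 (astrocyte), -0.10 (microglial), -0.11 (endothelial), -0.12 (interneuron), -0.15 (dentate granule) and -1.39 (choroid plexus, 2 genes). Those of CA3 pyramidal and pan-neuronal markers were 0.01 and 0.05. A median below 0 was thus not particular to the oligodendrocyte lists.

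Among 14 further genes of myelin structure the median was -0.12, and the 3 brightest were Bcas1 (0.07), Plekhb1 (-0.20, limma adjusted p = 0.160) and Mal2 (0.06), the last a relative of Mal. Among 14 genes of myelin lipids and metabolism the median was -0.03, with -0.06 for the fatty acid desaturase Scd2, -0.10 for Qdpr, which regenerates tetrahydrobiopterin, and -0.03 for the lipid carrier Apod. Ugt8, the enzyme that makes the galactolipids of myelin, had the lowest adjusted p of the 61 and was named after its values were seen. Its level was 8.18 ± 0.30 in learning and 7.72 ± 0.23 in control animals (SD, n = 7 each), a log2 fold change of 0.46 (SE 0.13, limma adjusted p = 0.0680). It thus missed the threshold by about as much as Mag, with the opposite sign. Its adjusted p was 0.0484 with the 60th percentile cutoff and 0.0451 without learning replicate 1.

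Of 10 transcription factors and regulators the brightest were Olig1 (-0.08), an early lineage factor, Id2 (0.01), an inhibitor of basic helix-loop-helix factors, and Myrf (-0.17, limma adjusted p = 0.195). Among 16 signalling genes and other markers the median was -0.05, with -0.11 for the tubulin-binding protein Tppp, 0.05 for the kinase Sgk1 and -0.07 for the deacetylase Sirt2. All 7 tested genes of the progenitor list had a fold change below 0, against 63.9% of the 6836 genes. So did 4 of 4 dentate granule and 8 of 9 interneuron markers. The amounts were small (median -0.08), with Nnat at -0.10, Fabp7, the fatty acid binding protein of radial glia, at -0.08, and Cspg5 at -0.01. Nnat is also on the list of CA3 neurons, so it does not mark progenitors alone in this tissue.

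The genes whose deviations ran most closely with those of the 7 myelin genes over the 14 arrays were ranked among 6829 others. Here each gene entered by its probe set with the highest r, not by its brightest. The top 10 by Pearson r were Pacs2 (0.89), Gsn (0.87), Endod1 (0.87), Myrf (0.86), Atg3 (0.86), Vps4b (0.86), Eml1 (0.86), Inpp5f (0.85), LOC100912167 (0.85) and Apod (0.83). Of these, Gsn, Myrf and Apod were on the oligodendrocyte lists. The 61 genes of those lists had a median r of 0.49, against 0.04 over all 6829. Without control replicates 1 and 5 the r of the 10 lay between 0.84 and 0.91.

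Myrf, the factor that switches on myelin genes as oligodendrocytes mature, had log2 levels of 7.90, 8.07 and 8.21 in the learning group, against 7.97, 8.29 and 8.42 in the control group. Its change of -0.17 had a 95% interval of -0.31 to -0.02, and it did not pass. Because Myrf and the myelin genes moved together over animals, the promoters of the members were searched for the words CTGGCAC and CTGGTAC that MYRF is known to bind, on both strands of the 250 bases before the start site (RefSeq, assembly GRCr8). All but Mog had a promoter in that table, and 4 of these 6 genes, Mag, Cnp, Mal and Cldn11, held a match, against 5.48% of all 33469 promoters. In each of the 4 windows the match is in capitals with 10 bases on either side, read along the strand of the match, which is that of the gene for Mag and Cnp and the opposite one for Mal and Cldn11. They are shown because Mag and Cnp share an unbroken run of 13 bases that was in 4 of the 33469 promoters, Mag and Cnp included. The run was looked for in these windows after both had been found to hold CTGGCAC, which is part of it. Its low count is therefore no test of the pair.
Mag, chr1:95291122-95291148, minus strand: caggcggcccCTGGCACccagggggca
Cnp, chr10:86011370-86011396, plus strand: cagctgcttcCTGGCACccaggtttcg
Mal, chr3:135341533-135341559, plus strand: tgaatcacctCTGGCACagccctaaaa
Cldn11, chr2:114149643-114149669, plus strand: gggtcaggctCTGGTACagggtgtgga

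The matches lay 88 to 126 bases before the annotated start sites. Neither of the windows of Mbp nor that of Mobp held one of these words. The core words ACAAAG and ACAATG of the SOX family, to which SOX10 belongs, were found in 4 of the 6 genes on either strand, against 25.3% of all promoters, and no match overlapped one of the MYRF words. In Mbp, 1 window held 3 of the SOX words and the other held none. For both families of words the members are counted by gene, while the share over all is by promoter. In Mobp the SOX words occurred 8 times, which 2 of the 33469 promoters reached, that of Mobp included. Mobp was picked out because its count was the highest of the members, so this rarity is no test of it. The part upstream of the annotated gene, chr8:128746982-128747116 on the plus strand, is shown for this series of words, with its matches in capitals (all of them ACAAAG on the opposite strand). It holds 7 of the 8, and the eighth runs 1 base past its end.
Mobp: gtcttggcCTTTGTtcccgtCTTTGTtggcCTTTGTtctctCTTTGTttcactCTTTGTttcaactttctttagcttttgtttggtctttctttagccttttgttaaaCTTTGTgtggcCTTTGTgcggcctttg
A match of letters describes the window and does not show that a factor binds there.

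Over the series, arrays correlated at 0.983 to 0.995, and 0 columns were duplicates. Of 12 measures per array, 3 differed between the groups by a two-sided exact permutation test after adjustment. The mean of 12 pan-neuronal markers was 11.24 ± 0.02 in learning and 11.18 ± 0.04 in control animals (SD, n = 7 each, exact p = 0.00117, adjusted p = 0.0105). Its members were not uniform: 4 of the 12 had a fold change below 0, among them Eno2 (-0.14). Only 1 passed in limma, Nefl (0.24, adjusted p = 0.0333). The mean of the 2 choroid plexus markers tested of 10, Ttr and Igfbp2, was 5.84 ± 0.41 in learning and 7.24 ± 0.85 in control animals (SD, n = 7 each, exact p = 0.00175, adjusted p = 0.0105), and the spike-in level was higher by 0.20 in learning arrays (exact p = 0.00524, adjusted p = 0.0210). Astrocyte markers differed by -0.03 (14 of 14 tested, learning range 9.65 to 9.83, control range 9.68 to 9.86, exact p = 0.389, adjusted p = 0.467). Microglial markers (10 of 12 tested) differed by -0.11 (exact p = 0.124, adjusted p = 0.248) and endothelial ones (7 of 12) by -0.18 (exact p = 0.0437, adjusted p = 0.106). Dentate granule, interneuron and CA3 pyramidal markers differed by -0.17, -0.02 and 0.04 (exact test, adjusted p = 0.329, 0.671 and 0.367). The astrocyte and interneuron means also covered uneven members: 11 of 14 and 8 of 9 had a fold change below 0. The largest rises there were of Slc1a2 among astrocyte markers (0.45, limma adjusted p = 0.0858) and Gad2 among interneuron markers (0.76, limma adjusted p = 0.110). The Gapdh 3'/5' ratio was 0.45 ± 0.05 in the 7 learning animals, against 0.51 ± 0.06 in the 7 control animals (SD, exact p = 0.0443, adjusted p = 0.106), and with it as covariate the change of Mag was -0.17 (limma adjusted p = 0.321). The part of these measures in the values of the myelin genes was not tested further.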

How the data were processed

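Total RNA of CA3 from 14 rats was labelled with biotin and hybridised to Affymetrix RAE230A arrays, per the labels' protocols. The deposited values are log2 levels that the authors made with GCRMA, per the submitters' processing notes. Its settings are not stated in these sources. That the scale is log2 follows from the range of the values. GCRMA compresses differences near background. Groups and replicate numbers came from the sample titles.

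Genes were named from the GEO platform annotation, which gave 1 gene for 12789 probe sets and several for 312 (left unnamed), with symbols updated through RefSeq (GRCr8) for 12754. The 57 control probe sets and 6346 probe sets below the 40th percentile were left out, and limma 3.58.1 (R 4.3.3) was run on the other 9520 by lmFit and eBayes without covariates, with Benjamini-Hochberg adjustment, called at an adjusted p under 0.05. The fit was tested on simulated data. The members, lists and alternatives were chosen with earlier results of these data known. Named were all member probe sets, called genes and the 3 brightest of each oligodendrocyte list, and the 10 genes most correlated with the members. Correlations with 3'/5' ratios used 100000 permutations within groups. The alternatives were 3 other filters, moderation with trend and robust fit, quantile normalization, weights per array, a replicate block, median centring, 3 covariates and each array left out; the arrays of control replicates 1 and 5 were left out together after the data were seen. Scan dates and slides were not used, and precision is set by 7 arrays a group. The labels call the arrays biological replicates.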

Additional observations from a re-analysis of the deposited data

Results flagged for a closer look

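In all, 3 values per array stood apart within their group of 7, by a gap to the nearest other animal larger than Dixon's 95% limit; none of the 12 myelin probe sets did. Control replicate 5 had a hexokinase 3'/5' ratio of 2.57 (log2) and a Gapdh 3'/5' ratio of 0.64 (log2), each far above the other control arrays, and it is the array on which the dimmer Mbp, middle Mobp and dimmer Cnp probe sets were lowest. Control replicate 6 had a spike-in level of 8.73, far below the others of its group. Of 48 sets of 7 values looked at, 3 stood apart, and chance gives about 1 in 20.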

How the results depend on the processing

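The count of 0 called myelin probe sets was 1 with the 60th percentile filter and in the fit without control replicate 7, Mag in both cases, and 0 in the other alternatives (0 to 1 with 1 array left out). The count of 0 over the oligodendrocyte lists was 1 with the 60th percentile filter and without learning replicate 1 (Ugt8 in both; 0 to 1 with 1 array left out). Of all probe sets, 319 were called; there were 158 with no filter, 39 with the Gapdh ratio, 177 with the hexokinase ratio and 101 with the dentate marker level as covariate, 137 without control replicates 1 and 5, and 163 to 352 with 1 array left out. Without control replicate 1, 2 or 3 there were 163, 166 and 167, and without learning replicate 3, 4, 6 or 7 there were 188, 164, 171 and 188. The cause was not tested. Same-numbered animals were not treated as pairs in the main fit. Their deviations correlated at -0.16 to 0.13 over 7 pairs, and 1 of 7 learning animals correlated best with its own number. Whether same-numbered animals shared a processing batch was not tested. With the replicate block 313 probe sets were called, 0 of them members. Mag kept its direction in all 26 alternatives (-0.27 to -0.17, adjusted p = 0.0448 to 0.321). The sign turned for the brighter Mbp probe set with the dentate marker level as covariate (-0.0056) and without control replicate 3 (-0.0027, the lowest of -0.0027 to 0.034 with 1 array left out), for the dimmer one with the hexokinase ratio (-0.011), and for Mal with the Gapdh ratio (0.077) and without control replicates 1 and 5 (0.0071), none of them called. Between probe sets of Cnp the difference of 0.017 ran from -0.027 to 0.052 with 1 array left out and was -0.018 without control replicates 1 and 5. The 3 differences of Cldn11 and Mobp that passed kept their direction with 1 array left out, with adjusted p-values over the 6 pairs of 0.0192 to 0.0664 for Cldn11 and of 0.00699 to 0.0944 and 0.00699 to 0.0664 for Mobp in the exact test.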
